A study of Gallus gallus with 6 samples.

Results

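The 10 genes described here make, break down or sense prostaglandins: the cyclooxygenases PTGS1 and PTGS2, the terminal synthases PTGES, PTGDS and HPGDS, the inactivating enzyme HPGD, and the receptors PTGER2, PTGER3, PTGER4 and PTGFR. They were picked by gene symbol from the deposited table of 15491 genes. All 10 are listed there and all 10 were among the 14743 genes that passed the filter on low counts. The choice was made with earlier results of the same contrast known, in which HPGD stood out, so the differences below describe these libraries and are no independent evidence about the group.

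The birds were male Ross broilers, fast-growing meat-type chickens on 1 diet, kept under 24-h light and caged singly after day 14, and the tissue was abdominal fat. The heat stress group (3 libraries) spent days 21 to 35 of life at 32 °C, and the thermoneutral group (3 libraries) spent them at 22 °C. Humidity was 50% for both. The labels do not say that each library is 1 chicken, so the p-values reflect spread between libraries, which may be technical.

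Prostaglandins are short-lived lipid signals made from arachidonic acid. Phospholipases release the fatty acid from membranes, a cyclooxygenase turns it into prostaglandin H, and terminal synthases convert that into prostaglandin E, D or F. Secreted prostaglandins act on receptors of nearby cells until they are taken up and oxidised by HPGD. In mammalian fat, prostaglandin E acting on PTGER3 restrains lipolysis by lowering cyclic AMP, and prostaglandin F acting on PTGFR holds back the maturation of preadipocytes.

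Total counts were 38336086 to 45163458 in heat stress libraries and 30673333 to 35836632 in thermoneutral libraries, so every heat stress library was the deeper. Library composition also separated the groups. Counts in the top 10 genes amounted to 9.53% to 10.02% in heat stress and 12.2% to 13.2% in thermoneutral fat, and mitochondrial genes took 6.02% to 6.43% in heat stress and 6.78% to 7.86% in thermoneutral fat. What part depth and composition had in the differences below was not tested. Levels are in CPM (counts for each 1e+06 of a scaled library total), which compare libraries within a gene. Among the 10 genes, counts ran from 58 (PTGER2 in thermoneutral 1) to 34256 (PTGDS in heat stress 1). Adipocyte markers were abundant in every library, and their 12 genes summed to 20078 to 22871 CPM in heat-stressed fat and 13651 to 19263 CPM in thermoneutral fat. The first principal component put thermoneutral 2 farthest from the heat stress libraries (53.3, against 6.65 and 24.9 in the other thermoneutral libraries and -36.8 to -15.7 in heat stress).

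HPGD was lower in heat-stressed fat, while the cyclooxygenases and the receptors showed smaller or less uniform differences. In edgeR's quasi-likelihood test 1 of the 10 genes, HPGD, passed a false discovery rate (FDR) of 0.05 over all genes tested. Genes lower in heat stress at that threshold made up 0.0610% of all genes tested, and genes called in either direction 0.176%. Of the 10 genes 8 had a negative log2 fold change (heat stress over thermoneutral), as did 50.6% of all genes. Their median was -0.24, and the median over all genes was -0.0045. An unadjusted p under 0.05 was reached by 4 (HPGD, HPGDS, PTGDS and PTGER4), all lower, where 9.20% of all genes were lower at that p and 18.8% passed it in either direction. Groups did not overlap in CPM for 2 (HPGD and PTGER4), both lower, where 12.4% of all genes were lower without overlap and 25.0% had no overlap in either direction. DESeq2 called 2 (HPGD and HPGDS), both lower, where it called 4.09% of all genes lower and 9.17% in all. Since this contrast was known when the genes were chosen, nothing is read from these counts.

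**Figure D1:**
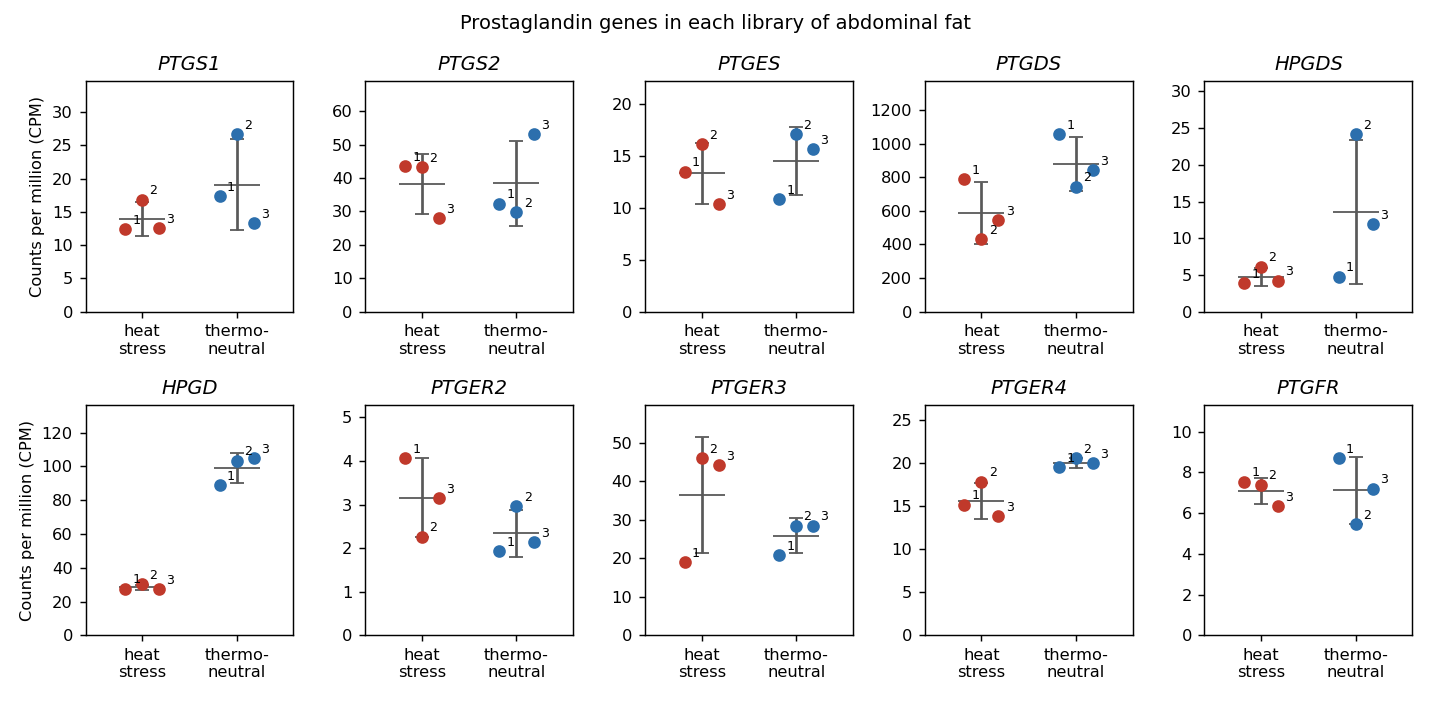
CPM of each gene in each library, with heat stress on the left (red) and thermoneutral on the right (blue). Numbers mark the library, the horizontal line is the mean and the bar is 1 SD (n = 3). HPGD lies at 27.3 to 30.3 CPM in heat stress, far below its 88.8 to 105 CPM in thermoneutral fat, and HPGDS is spread widely in thermoneutral fat.

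Of the cyclooxygenases PTGS2, the inducible enzyme, had the higher TPM (a level scaled for gene length) in every library but thermoneutral 2. PTGS2 (gene ID 396451) had 43.5, 43.2 and 27.9 CPM in heat stress 1, 2 and 3, against 32.4, 29.8 and 53.1 CPM in thermoneutral 1, 2 and 3. The groups overlapped almost entirely, since the highest and the second lowest values were both thermoneutral. The log2 fold change was -0.0082 ± 0.26 SE, with a 95% interval of -0.63 to 0.62, so a difference of either sign lies inside it. PTGS1 (gene ID 427752), the constitutive enzyme known from mammalian platelets and stomach, had 12.4, 16.8 and 12.5 CPM in heat stress, against 17.3, 26.7 and 13.3 CPM in thermoneutral fat. One thermoneutral library, number 2, stood above all others. The log2 fold change of PTGS1 was -0.46 ± 0.27 (interval -1.08 to 0.17). It ranged from -0.66 without thermoneutral 3 to -0.14 without thermoneutral 2.

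Among the terminal synthases PTGDS had by far the highest TPM in every library. PTGDS (gene ID 374110), the lipocalin-type prostaglandin D synthase, which also carries small hydrophobic molecules, had 788, 430.0 and 546 CPM in heat stress, against 1056, 744 and 841 CPM in thermoneutral fat. Heat stress 1 lay above thermoneutral 2, so the groups overlapped. PTGDS averaged 588 ± 183 CPM in heat stress and 880.2 ± 159 CPM in thermoneutral fat (SD, n = 3 each), for a log2 fold change of -0.58 ± 0.24, and missed the all-gene threshold (FDR = 0.255 in edgeR). It was -0.85 without heat stress 1 and -0.40 without heat stress 2. PTGES (gene ID 417193), the membrane-bound prostaglandin E synthase that works with PTGS2 in mammals, had 13.5, 16.1 and 10.3 CPM in heat stress, against 10.8, 17.1 and 15.6 CPM in thermoneutral fat. Its groups overlapped throughout, and the log2 fold change of -0.12 ± 0.23 had an interval of -0.66 to 0.41.

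HPGDS (gene ID 395863), the glutathione-dependent prostaglandin D synthase of blood-forming and immune cells, had 3.89, 6.13 and 4.25 CPM in heat stress, against 4.77, 24.2 and 11.9 CPM in thermoneutral fat. Thermoneutral 2 and 3 were above every heat stress library, but thermoneutral 1 lay inside the heat stress range. The mean was 4.75 ± 1.20 CPM in heat stress and 13.6 ± 9.81 CPM in thermoneutral fat, a log2 fold change of -1.52 ± 0.54 (interval -2.79 to -0.24, FDR = 0.201 in edgeR). DESeq2 placed it past its threshold (adjusted p = 0.0375), as did the authors' deposited table, made from the same libraries (adjusted p = 0.0376). In edgeR no fit that left out a library did (FDR 0.0876 to 0.43). The log2 fold change ranged from -1.92 without thermoneutral 1 to -0.82 without thermoneutral 2.

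Markers of blood cells differed between libraries. The 12 heterophil and thrombocyte markers, the avian counterparts of neutrophil and platelet genes, all had negative log2 fold changes (median -1.03), although in edgeR 0 passed the FDR and 2 had an unadjusted p under 0.05, and DESeq2 called 2. They summed to 321, 476 and 384 CPM in heat stress 1, 2 and 3, against 535, 1071 and 709 CPM in thermoneutral 1, 2 and 3, highest in the library where HPGDS and PTGS1 were highest. The separation of these sums rests on THBS1 and F13A1, without which the other 10 summed to 149, 159 and 141 CPM in heat stress, against 112, 578 and 179 CPM in thermoneutral fat. The mean of log2 CPM over the 12 genes was also taken relative to the thermoneutral mean. On it thermoneutral 1 was the lowest of all libraries at -0.88, with heat stress at -0.79 to -0.46 and thermoneutral 2 at 1.03. Of thermoneutral 1 and 3, PTGS1 was higher in thermoneutral 1 (17.3 against 13.3 CPM) and HPGDS in thermoneutral 3 (11.9 against 4.77 CPM). Erythrocyte markers (6 genes, without ALAS1, which a synonym had matched to the erythroid ALAS2) summed to 242, 423 and 395 CPM in heat stress, against 489, 952 and 422 CPM in thermoneutral fat. Mast cells express HPGDS in mammals, and the 5 markers of that list summed to 121 to 139 CPM in heat stress and 122 to 134 CPM in thermoneutral fat. MITF and GATA2 made up most of those sums. KIT had 6.72 to 13.4 CPM in heat stress and 5.77 to 8.76 CPM in thermoneutral fat. HDC had 4.64 to 5.68 CPM in heat stress and 2.96 to 7.19 CPM in thermoneutral fat. FCER1G had 3.61 to 7.31 CPM in heat stress and 4.70 to 6.91 CPM in thermoneutral fat. The mast cell genes CPA3, MS4A2, TPSAB1 and CMA1 and the thrombocyte genes GP9 and PF4 were not matched by name. What part these cells had in the difference of HPGDS or PTGS1 was not tested.

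HPGD (gene ID 422567) oxidises prostaglandins E and F to forms that their receptors barely bind, the first step of their inactivation. It had 27.6, 30.3 and 27.3 CPM in heat stress 1, 2 and 3 and 88.8, 103 and 105 CPM in thermoneutral 1, 2 and 3. These values rest on 1043 to 1394 counts per heat stress library and 2664 to 3695 counts per thermoneutral library. The highest heat stress library (30.3 CPM) lay far below the lowest thermoneutral one (88.8 CPM), and the spread within each group was small (coefficient of variation 5.72% in heat stress and 9.01% in thermoneutral fat). The log2 fold change was -1.80 ± 0.097, with a 95% interval of -2.03 to -1.57 (FDR = 0.00413 in edgeR). HPGD had the smallest p of all genes tested, while 0.651% of genes had a lower log2 fold change. It passed with each library left out in turn (log2 fold change -1.87 to -1.76, FDR 0.0129 to 0.0307) and stood at -1.78 without thermoneutral 2.

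Markers of other cell types also differed between the groups. Preadipocyte and fibroblast markers (13 genes, 11 of them lower, median -0.47) summed to 43235, 41398 and 35582 CPM in heat stress, against 57739, 50227 and 61574 CPM in thermoneutral fat. The collagen genes COL3A1, COL1A2 and COL1A1 made up most of these sums. PDGFRB went the other way, at 564 to 605 CPM in heat stress and 438 to 493 CPM in thermoneutral fat. T cell and NK cell markers (13 of 13 lower, median -0.61) summed to 148, 130 and 133 CPM in heat stress, against 206, 222 and 217 CPM in thermoneutral fat. Macrophage and dendritic cell markers (12 of 13 lower, median -0.43) summed to 5402, 3132 and 3622 CPM in heat stress, against 5242 to 5474 CPM in thermoneutral fat. CD74 made up most of the macrophage and dendritic cell sums. Mesothelial markers (8 of 8 lower, median -0.79) were lowest in heat stress 1 (55.6 CPM) and highest in thermoneutral 2 (273 CPM), with thermoneutral 1 at 64.8 CPM. Endothelial markers were higher for 11 of 12 genes (median 0.49). B cell and plasma cell markers (8 of 10 lower) had a median of -2.02, lower than the value of HPGD. Several were near the floor in heat stress, such as PAX5 (0.196 to 0.524 CPM) and TNFRSF13C (0.0435 to 0.207 CPM), unlike HPGD (27.3 to 30.3 CPM). The list summed to 238, 120 and 128 CPM in heat stress, against 213, 309 and 247 CPM in thermoneutral fat. Most of these sums came from JCHAIN, BLNK and EBF1. Smooth muscle and pericyte markers (8 of 9 lower, median -0.50) overlapped in their sums through RGS5, which was higher in every heat stress library. The other 8 summed to 399, 765 and 686 CPM in heat stress, against 871, 1141 and 767 CPM in thermoneutral fat. Heat stress 2 (765 CPM) and thermoneutral 3 (767 CPM) all but met. RGS5 was left out after its values were seen, so no separation is read from these sums. Of the 78 markers in these 7 lists, 1 (a T cell and NK cell gene, lower) passed the FDR in edgeR, against 0.176% of all genes. An unadjusted p under 0.05 was reached by 42 of the 78 (53.8%, 9 higher and 33 lower), against 18.8% of all genes. DESeq2 called 29 of the 78 (37.2%, 8 higher and 21 lower), against 9.17% of all genes. The 7 lists were pooled after their values were seen. Of the lists left out, an unadjusted p under 0.05 was reached by 4 of 12 adipocyte and 2 of 12 heterophil and thrombocyte markers. So it was by 1 of 5 mast cell and 3 of 7 erythrocyte markers. Adipocyte markers were higher for 10 of the 12. In whole fat, fewer cells of a type and less RNA per cell cannot be told apart, and the part of any of these cells in the difference of HPGD was not tested.

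**Figure D2:**
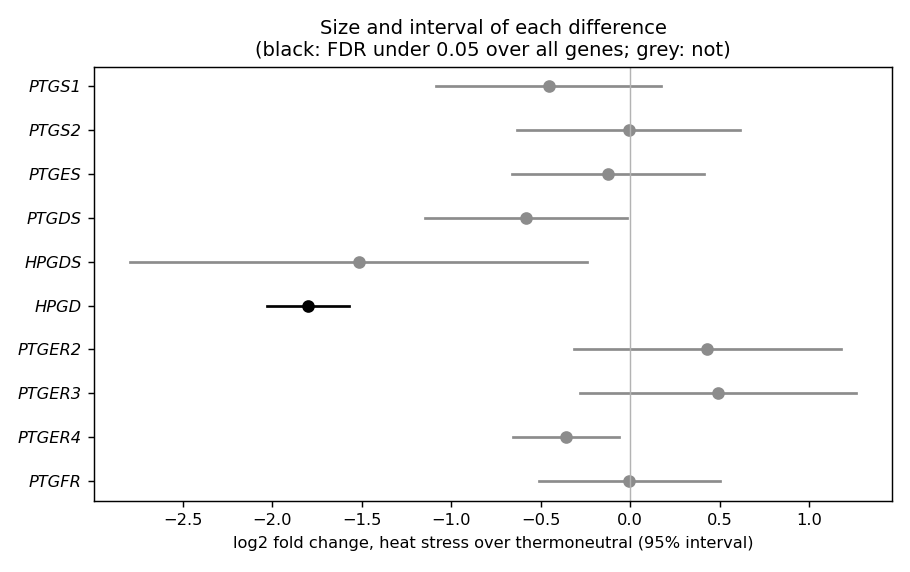
Log2 fold change of each gene, heat stress over thermoneutral, with its 95% interval from edgeR's quasi-likelihood fit. HPGD (black) stands at -1.80 with an interval of -2.03 to -1.57, and the other genes (grey) did not pass the FDR over all genes. The interval of HPGDS is the widest, -2.79 to -0.24.

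Among the receptors, PTGER4 was a little lower in CPM in every heat-stressed library. PTGER4 (gene ID 427183), a receptor for prostaglandin E that raises cyclic AMP, had 15.2, 17.8 and 13.8 CPM in heat stress, against 19.5, 20.6 and 19.99 CPM in thermoneutral fat. The groups did not overlap in CPM, and the coefficient of variation among thermoneutral libraries was only 2.74%. In the authors' TPM they did overlap, with heat stress 2 at 10.6 TPM and thermoneutral 1 at 10.4 TPM. The log2 fold change of -0.36 ± 0.13 (interval -0.66 to -0.064) missed the all-gene threshold (FDR = 0.193 in edgeR).

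PTGER3 (gene ID 429116), the prostaglandin E receptor that lowers cyclic AMP, had 19.0, 46.0 and 44.2 CPM in heat stress 1, 2 and 3, against 20.8, 28.4 and 28.5 CPM in thermoneutral 1, 2 and 3. Heat stress 2 and 3 were above every thermoneutral library, and heat stress 1 was the lowest of all. The log2 fold change was 0.49 ± 0.33 (interval -0.28 to 1.26, FDR = 0.471 in edgeR), and ranged from 0.29 without heat stress 2 to 0.80 without heat stress 1 (edgeR FDR = 0.745 and 0.0877). PTGER2 (gene ID 100034745), which like PTGER4 raises cyclic AMP, had 4.07, 2.26 and 3.15 CPM in heat stress, against 1.93, 2.96 and 2.13 CPM in thermoneutral fat. Its groups overlapped, at 58 to 177 counts per library (log2 fold change 0.43 ± 0.32, interval -0.32 to 1.18). The value was 0.21 without heat stress 1 and 0.62 without heat stress 2. PTGFR (gene ID 424548), the receptor for prostaglandin F, had 7.54, 7.39 and 6.34 CPM in heat stress, against 8.70, 5.45 and 7.19 CPM in thermoneutral fat. All of its heat stress values lay inside the thermoneutral range (log2 fold change -0.0038 ± 0.21, interval -0.51 to 0.50).

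Levels of different genes were compared in the authors' TPM, which are scaled for gene length. PTGDS was the most abundant in both groups, at 1720 ± 520.5 TPM in heat stress and 2406 ± 400 TPM in thermoneutral fat, above 99.7% of listed genes in both. HPGD came second in thermoneutral fat (116 ± 11.8 TPM), where its lowest library lay above the highest of every gene but PTGDS. In heat stress HPGD averaged 35.5 ± 2.78 TPM and came next after PTGDS and PTGER3 (57.2 ± 24.0 TPM in heat stress and 38.0 ± 6.98 TPM in thermoneutral fat), and the ranges of PTGER3 and HPGD overlapped there. PTGES (20.5 ± 4.57 TPM in heat stress and 20.5 ± 5.03 TPM in thermoneutral fat) and PTGS2 (18.2 ± 4.88 TPM in heat stress and 16.9 ± 5.92 TPM in thermoneutral fat) overlapped in their ranges in both groups. HPGDS averaged 11.1 ± 3.04 TPM in heat stress and 29.7 ± 21.6 TPM in thermoneutral fat. PTGER4, PTGS1, PTGER2 and PTGFR filled the last places, with means of 5.15 to 9.09 TPM in heat stress and 4.15 to 10.9 TPM in thermoneutral fat.

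**Figure D3:**
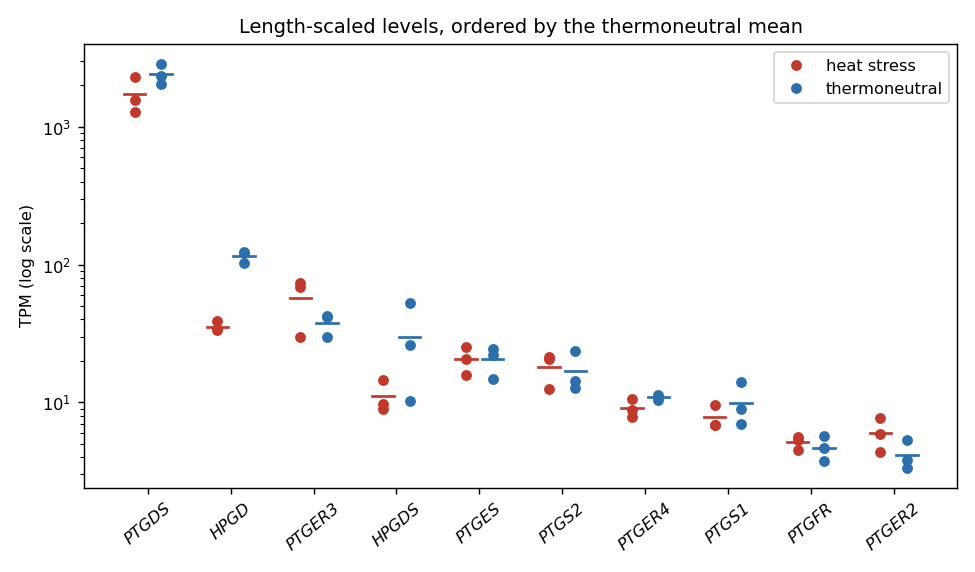
TPM of each gene in each library on a log axis, ordered by the thermoneutral mean, with heat stress (red) left of thermoneutral (blue). Points are libraries and lines are means. PTGDS lies above 1000 TPM in all 6 libraries, and the HPGD groups lie apart, at means of 35.5 TPM in heat stress and 116 TPM in thermoneutral fat.

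Ratios within a library show the balance of these mRNAs, and say nothing of enzyme activity. For each TPM of the cyclooxygenases together (PTGS1 plus PTGS2) there were 1.22, 1.27 and 1.73 TPM of HPGD in heat stress, against 4.44, 4.55 and 4.05 TPM in thermoneutral fat. These ratios and shares were chosen after the values were seen and are given without a test. PTGER3 made up 57.6%, 78.2% and 78.9% of the TPM of the 4 receptors in heat stress, against 60.6%, 67.4% and 68.4% in thermoneutral fat. PTGER4 made up 17.0%, 11.2% and 9.13% in heat stress, against 21.1%, 18.1% and 17.8% in thermoneutral fat, with no overlap. The TPM of PTGER4 alone overlapped (7.89 to 10.6 in heat stress and 10.4 to 11.3 in thermoneutral fat). Its share also moves with PTGER3, the largest part of the total. The ratio of PTGS2 to PTGS1 was 1.83 to 3.08 in heat stress and 0.914 to 3.39 in thermoneutral fat.

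The rest of the eicosanoid pathway was taken from 6 lists of gene names, 64 of which were tested. In edgeR 0 of the 64 passed the FDR. At an unadjusted p under 0.05 in edgeR, 10 were higher and 9 lower (9.56% and 9.20% of all genes). DESeq2 called 5 higher (FAAH, AKR1B1L, GGT5, EPHX2 and EPHX4), where it called 5.08% of all genes higher. It called 3 lower (MBOAT1, CYP4V2 and GGT7), where it called 4.09% of all genes lower. Log2 fold changes of the 64 were positive for 31 and negative for 33, with a median of -0.012. Without overlap in CPM, 8 of the 64 were higher and 10 lower, where 12.6% and 12.4% of all genes were.

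Genes that free arachidonic acid or other fatty acids from lipids, or return them to membranes, had 14 of 20 negative values (median -0.18). Not all of them act on arachidonic acid in particular. PLA2G4A, the cytosolic phospholipase that supplies the cyclooxygenases, had 40.2, 46.9 and 32.9 CPM in heat stress, against 50.2, 54.6 and 56.0 CPM in thermoneutral fat, without overlap (log2 fold change -0.42 ± 0.14, FDR = 0.171 in edgeR). MBOAT1, a lysophospholipid acyltransferase, had 29.97, 42.0 and 37.8 CPM in heat stress, against 54.4, 54.2 and 56.9 CPM in thermoneutral fat (edgeR FDR = 0.0858 and DESeq2 adjusted p = 0.00385). FAAH, which hydrolyses the endocannabinoid anandamide to arachidonic acid, averaged 65.4 ± 16.4 CPM in heat stress and 40.3 ± 6.60 CPM in thermoneutral fat (FDR = 0.14 in edgeR).

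Other prostanoid synthases split evenly, 5 of 10 higher and 5 lower (median 0.0045). TBXAS1, the thromboxane synthase of platelets and macrophages in mammals, averaged 7.24 ± 1.57 CPM in heat stress and 10.9 ± 1.63 CPM in thermoneutral fat, without overlap (log2 fold change -0.59 ± 0.21). AKR1B1L and AKR1B10L1 belong to the aldo-keto reductases, a family with near-identical members between which reads may be split, which makes both values uncertain. AKR1B1L had a log2 fold change of 1.07 ± 0.26 (edgeR FDR = 0.0974) and AKR1B10L1 of 0.50 ± 0.16 (edgeR FDR = 0.173).

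The other 12 genes of breakdown and transport had 6 positive and 6 negative values (median 0.050, lowest -0.95). PTGR1, PTGR2 and ZADH2, reductases that act after HPGD, had log2 fold changes of 0.42 ± 0.19, 0.14 ± 0.11 and -0.092 ± 0.10. SLCO2A1, the prostaglandin transporter that brings prostaglandins to HPGD inside cells, averaged 32.6 ± 8.66 CPM in heat stress and 23.0 ± 4.04 CPM in thermoneutral fat (log2 fold change 0.50 ± 0.22, FDR = 0.289 in edgeR). SLCO3A1, a related carrier, stood at 0.55 ± 0.21, and CYP4V2, a fatty acid hydroxylase, at -0.66 ± 0.17 (edgeR FDR = 0.114).

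The other prostanoid receptor genes overlapped between the groups. PTGDR, a receptor for prostaglandin D, had 9.29, 3.13 and 3.85 CPM in heat stress, against 4.07, 4.01 and 4.72 CPM in thermoneutral fat. TBXA2R, the thromboxane receptor, averaged 8.44 ± 0.37 CPM in heat stress and 7.88 ± 0.66 CPM in thermoneutral fat, and PTGFRN, a partner protein that dampens PTGFR, had a log2 fold change of -0.067 ± 0.17.

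In the lipoxygenase and leukotriene branch 6 of 12 genes were lower (median 0.019). ALOX5, which starts leukotriene synthesis in myeloid cells, averaged 13.1 ± 3.91 CPM in heat stress and 22.7 ± 5.61 CPM in thermoneutral fat (log2 fold change -0.79 ± 0.26, FDR = 0.179 in edgeR). GGT5, which trims leukotriene C, had 188, 171 and 158 CPM in heat stress, against 127, 97.8 and 109.7 CPM in thermoneutral fat (0.63 ± 0.12, FDR = 0.0675 in edgeR). It passed DESeq2 (adjusted p = 0.000284). GGT7 of the same family stood at -0.48 ± 0.13.

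The epoxygenase branch had 6 of 7 higher (median 0.46), and the groups of 4 genes did not overlap, all higher, against 12.6% of all genes. The 4 were EPHX1, EPHX2, CYP2J22 and CYP2J23. CYP2J22 and CYP2J23 belong to the same gene family, so the 4 need not be independent and nothing is read from the count. EPHX2, the soluble epoxide hydrolase, averaged 68.2 ± 4.96 CPM in heat stress and 47.4 ± 8.27 CPM in thermoneutral fat (0.52 ± 0.14, edgeR FDR = 0.116 and DESeq2 adjusted p = 0.0184). CYP2J23, of a cytochrome P450 family that makes epoxides of arachidonic acid in mammals, stood at 0.46 ± 0.19. EPHX4, whose gene ID the reference gene table now calls EPHX3, had 14.4, 1.78 and 20.3 CPM in heat stress, against 1.93, 2.32 and 1.22 CPM in thermoneutral fat, so that heat stress 2 lay among the thermoneutral libraries.

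**Figure D4:**
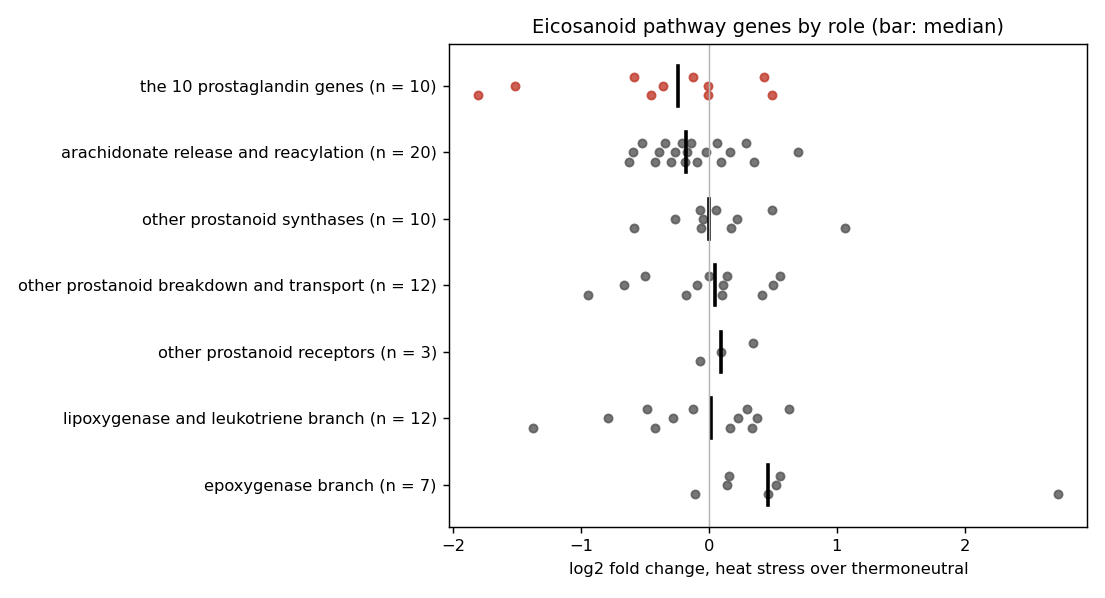
Log2 fold change of each tested gene, heat stress over thermoneutral, by role, with the 10 prostaglandin genes at the top in red. Points are genes and black bars are medians. The medians of the other lists lie between -0.18 and 0.46, and HPGD and HPGDS are the lowest points.

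A search for the genes closest to HPGD in profile over the 6 libraries left out provisional symbols, such as those starting with LOC. It covered 11555 other genes with a mean of at least 1 CPM. Closeness was the root mean square difference of log2 CPM after centring each gene on its mean, with a median of 0.92 over all these genes. MOXD1, a copper-dependent monooxygenase, was closest at 0.14. It had 7.84, 7.85 and 6.63 CPM in heat stress, against 29.5, 28.1 and 29.3 CPM in thermoneutral fat. THBS2, a matrix protein, followed at 0.21, with 43.3 to 57.6 CPM in heat stress and 136 to 146 CPM in thermoneutral fat. XCR1, a chemokine receptor of dendritic cells (0.22), FAM180A (0.23) and CD1C, a lipid-presenting molecule (0.33), were the next, all below 5 CPM. Because all 5 were found by their likeness to HPGD, their differences are a description.

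**Figure D5:**
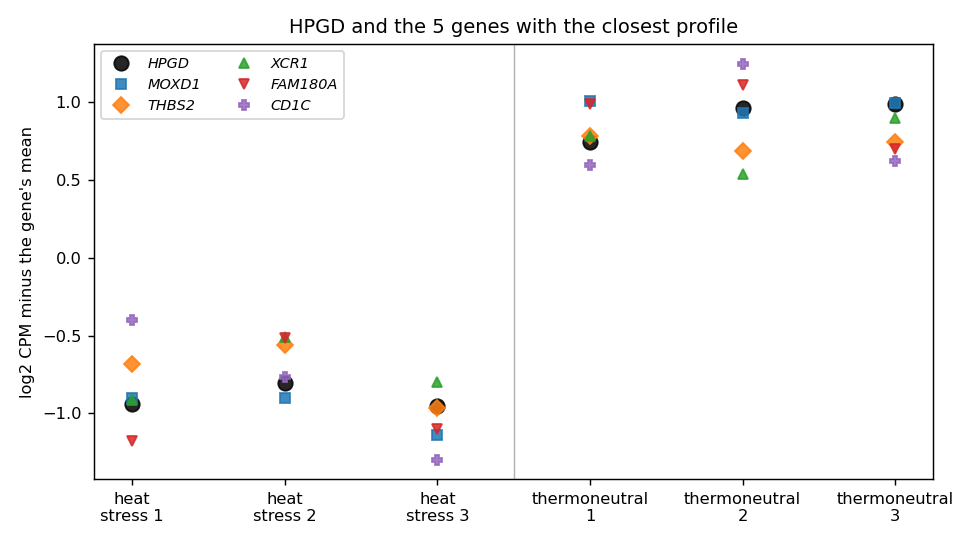
Log2 CPM of HPGD (black) and the 5 genes closest to it among those searched, each minus the gene's own mean. Heat stress libraries are on the left and thermoneutral libraries on the right. HPGD and MOXD1 lie within a root mean square of 0.14 of each other, and CD1C strays most, at 0.33.

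Genes beside the members were looked up in a reference gene table of another build (GRCg7b). Of the genes nearest to HPGD there, CEP44 and FBXO8 were tested. CEP44 averaged 7.85 CPM in heat stress and 9.69 CPM in thermoneutral fat, without overlap (log2 fold change -0.30 ± 0.15, FDR = 0.345 in edgeR), and FBXO8 averaged 45.7 CPM in heat stress and 46.2 CPM in thermoneutral fat (-0.015 ± 0.12). PTGS2 overlaps PLA2G4A in that build, and PTGER2 lies near PTGDR. Of 31 neighbours tested around all members 0 passed the FDR in edgeR, 4 (12.9%) had an unadjusted p under 0.05 and DESeq2 called 2 (6.45%), against 18.8% and 9.17% of all genes. In that build 6 of the 10 genes (all but PTGS1, PTGDS, PTGER2 and HPGD) overlap another gene, and without knowing whether counting used strand, reads of such pairs cannot be assigned with certainty.

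In the authors' deposited table HPGD had a signed fold change of -3.48 (negative when lower in heat stress) with an adjusted p of 3.90e-48, and HPGDS one of -2.86. Adjusted p-values under 0.05 were held by 8.81% of the genes listed there. HPGD and HPGDS were the only members in the authors' shorter list of 742 genes changed at least 2-fold, 4.79% of the genes listed. In the authors' deposited gene ontology table, 16 terms named for prostaglandins or other eicosanoids held HPGD or HPGDS, with adjusted p-values of 0.19 to 0.657. These terms hold only 1 to 36 genes each, of which 1 or 2 were in the shorter list, so nothing is read from them. HPGD was held by 17 terms with an adjusted p under 0.05 in the same deposited table, and 14 of them were broad terms such as development, cell cycle, response to chemicals or plasma membrane, the lowest being multicellular organismal process (163 genes, adjusted p = 1.60e-05). The other 3 concerned lipids, among them lipid metabolic process (42 genes, 23 up and 19 down, adjusted p = 0.00944).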

How the data were processed

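Per the labels' protocols, TRIzol-extracted RNA went into a stranded mRNA library kit. The submitters' processing notes name the build GRCg6a and the tools StringTie 2.1.3b, HISAT2 2.1.0 and Bowtie2 2.3.4.1. What each did, and the strand setting of counting, is not given in the sources used here. Each gene has a raw count, a TPM and an FPKM per library, made by the authors per the file headers. The authors also deposited signed fold changes, raw and adjusted p-values and ontology terms. The lowest count listed is 1, so genes at 0 in any library are not seen. A further 30 columns of values per library were not used.

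Counts were tested with edgeR 4.0.16 (R 4.3.3; quasi-likelihood F test, TMM scaling, filterByExpr, group as the only term), with Benjamini-Hochberg adjustment over all genes at an FDR of 0.05. The fit was tested on simulated data. SE is the absolute log2 fold change over the square root of F. CPM use TMM-scaled totals, and 1 CPM was 29.98 counts in the smallest library. DESeq2 1.42.0, limma 3.58.1 on log2 TPM and FPKM, other scalings and filters, a replicate block and leaving out each library were alternatives. Replicates differed by more than counting error (36.1 to 103.3 chi-square units for each degree of freedom). With 3 libraries against 3 an exact permutation test cannot go below p = 0.1, so none is given.

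The members, the pathway and marker lists and the tests were chosen with earlier results of these data known. Of 242 list entries 188 matched a listed gene by symbol, current symbol or synonym in a GRCg7b gene table. Named from each pathway list were the genes past the FDR or, where fewer than 3 passed, the 3 of smallest p. PTGR1, PTGR2, ZADH2, the neighbours and the marker sums without single genes were added after their values were seen. So were the counts pooled over 7 marker lists and the counts of ontology terms with HPGD. No sequences were used here.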

Additional observations from a re-analysis of the deposited data

How the results depend on the processing

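HPGD kept its direction and passed the FDR in all 15 alternatives, at log2 fold changes of -1.87 to -1.68. Of the 10 genes, 1 was called in each alternative except DESeq2, which called 2, HPGDS being the other. The 26 genes called among all genes became 99 with library totals, 1352 in DESeq2 and 133 with a floor of 1 CPM in all 6 libraries. The count was 202 on log2(TPM + 1), 222 on log2(TPM + 0.1) and 3 to 35 with 1 library left out. Without heat stress 2 or 3 there were 6 and 3, and without thermoneutral 2 or 3 there were 10 and 3. Of the other pathway genes 0 became 8 in DESeq2 and 1 (GGT5) on log2(TPM + 1) and on log2(TPM + 0.1). The count stayed at 0 in each fit with 1 library left out.

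Genes near 0 changed sign. PTGES turned to 0.0089 on log2(TPM + 1) and 0.0098 on log2(TPM + 0.1), and ranged from -0.30 to 0.029 with 1 library left out. PTGFR turned to 0.023 with library totals, 0.0012 with no filter, 0.12 on log2(TPM + 1), 0.14 on log2(TPM + 0.1) and 0.040 on log2(FPKM + 1), and ranged from -0.17 to 0.17 with 1 library left out. PTGS2 turned to 0.019 with library totals, 0.12 on either TPM scale and 0.034 on log2(FPKM + 1), and ranged from -0.17 to 0.30 with 1 library left out. The median over all genes also moved, from -0.0045 to 0.076 on log2(TPM + 1), 0.094 on log2(TPM + 0.1) and 0.018 with library totals. The cause of the sign changes was not tested.

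Titles number the libraries 1 to 3 in each group, and deviations of same-numbered libraries correlated at 0.078, 0.25 and 0.036. Heat stress 1 and 2 each correlated best with the thermoneutral library of the same number, but heat stress 3 did so with thermoneutral 1 (0.11). Such values from 3 libraries per group cannot decide whether same-numbered libraries were paired. The library names in the labels carry other numbers, which differ between libraries with the same title number. The labels thus give no pairing by number. With the title number as a replicate block 95 genes were called. In that fit HPGD stood at -1.80 (edgeR FDR = 0.0308), PTGFR at 0.016 and PTGS2 at 0.018. No call on the 10 genes or the other pathway genes changed. PTGER2, at 58 to 177 counts per library, is the member that depth limits most.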

Other observations

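ABCC4, an exporter that carries prostaglandins out of cells in mammals, had 14.6, 1.61 and 17.7 CPM in heat stress 1, 2 and 3, against 23.6, 21.0 and 20.7 CPM in thermoneutral 1, 2 and 3. It was singled out after its values were seen. Heat stress 2 thus lay far below the other 5 libraries, which spanned 14.6 to 23.6 CPM. Heat stress 1 and 3 were also below every thermoneutral library, so the groups did not overlap. The fitted log2 fold change of -0.95 ± 0.70 (FDR = 0.515 in edgeR) is an average over these unlike libraries. In EPHX4 the same library was also the one apart from its group, at 1.78 CPM against 14.4 and 20.3 CPM in the other heat stress libraries.

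In 3 genes, singled out after their values were seen, heat stress 1 lay apart from heat stress 2 and 3. It was the highest of its group for PTGDS (788 CPM, against 430.0 and 546 CPM) and for the receptor PTGDR (9.29 CPM, against 3.13 and 3.85 CPM). It was the lowest for PTGER3 (19.0 CPM, against 46.0 and 44.2 CPM). Heat stress 1 also differed from heat stress 2 and 3 over all genes (chi-square per degree of freedom of 101 and 103, against 36.1 between heat stress 2 and 3). These are values of single libraries, and with 3 per group no test was made of them.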
